A study of Mus musculus with 6 samples.

Results

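Microtubules are built from dimers of alpha and beta tubulin, and the mouse genome encodes each in several near-identical isotypes. The 10 isotype genes described here, 4 alpha (Tuba1a, Tuba1b, Tuba1c and Tuba4a) and 6 beta (Tubb2a, Tubb2b, Tubb3, Tubb4a, Tubb4b and Tubb5), were chosen by name, and all 10 were among the 14824 genes listed for S1 cortex. Tuba1c had been noticed for its spread between libraries, so its levels are given as a description with no test. Bulk RNA-seq of total RNA from the primary somatosensory (S1) cortex was compared between 3 libraries without whisker stimulation (NS) and 3 with it (WS). All 6 came from WT mice of strain C57B6 at postnatal day 21, with no transgene or drug in either group. The mice were male according to the methods, and the whiskers of the right side were brushed daily. WS tissue was taken 90 min after the last session. In the scheme of the stimulation the barrel cortex of the side that received none serves as NS, but the labels do not say whether an NS and a WS library share an animal. The p-values given below therefore measure only the spread between these libraries.

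In neurons, microtubules carry axonal and dendritic transport and shape the cell, and they are made from a mixture of isotypes that differ mainly in their acidic C-terminal tails. Tuba1a, Tubb2b and Tubb3 are known for their part in cortical development, and mutations of their human counterparts cause malformations of the cortex. Tubb4a is abundant in myelinating oligodendrocytes as well as in neurons, and its human counterpart is mutated in a hypomyelinating leukodystrophy. Tubulin mRNAs are also under autoregulation, in which an excess of free tubulin triggers the decay of tubulin mRNA on the ribosome through the first residues of the nascent chain, which are bound by Ttc5.

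The coding sequences show how alike the isotypes are and where they part. In the GENCODE M21 transcripts (GRCm38) each of the 10 genes had 4 exons in its principal transcript. The codons after the start codon, which encode the autoregulation signal, are in capitals in the first 12 bases: Tuba1a, Tuba1b and Tuba1c all begin with atgCGTGAGTGC, Tuba4a with atgCGCGAGTGC, Tubb2a with atgCGCGAGATC and Tubb4a with atgCGGGAAATC. The last 60 bases of the coding sequence encode most of the tail that sets the isotypes apart, and the last sense codon is in capitals before the stop codon. For Tuba1c, the isotype that varied most between libraries, and Tuba4a, the alpha isotype furthest from it in sequence, they read, 5′ to 3′:

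Tuba1c: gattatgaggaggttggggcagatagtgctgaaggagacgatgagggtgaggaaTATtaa
Tuba4a: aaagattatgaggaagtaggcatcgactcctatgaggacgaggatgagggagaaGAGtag

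The last codon of Tuba1c (TAT) encodes the tyrosine that is removed and put back by the detyrosination cycle, while Tuba4a ends with GAG and carries no encoded tyrosine. For the beta isotypes the same 60 bases, given because the tail is where isotypes are known to differ, read:

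Tubb2a: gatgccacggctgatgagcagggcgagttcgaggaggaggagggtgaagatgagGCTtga
Tubb2b: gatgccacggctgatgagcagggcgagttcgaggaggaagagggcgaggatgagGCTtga
Tubb3: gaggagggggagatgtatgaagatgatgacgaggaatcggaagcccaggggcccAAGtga
Tubb4a: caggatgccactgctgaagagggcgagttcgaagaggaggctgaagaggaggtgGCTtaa
Tubb4b: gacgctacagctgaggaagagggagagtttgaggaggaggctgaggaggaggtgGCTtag
Tubb5: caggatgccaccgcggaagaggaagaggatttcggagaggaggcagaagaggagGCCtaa

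Over the whole coding sequence Tuba1c was identical to Tuba1b at 98.4% of aligned bases (22 of 1350 differ) and to Tuba1a at 97.6% (33 differ). Tuba1a and Tuba1b were identical at 98.3%, and Tuba4a was further off, at 85.3% to 85.6% to the other 3. Among the beta isotypes Tubb2a and Tubb2b were 96.5% identical, and the other pairs between 82.3% and 84.6%. The 3 Tuba1 genes lie near each other on chromosome 15 of GRCm38, Tuba1b at 98931425 to 98934565 and Tuba1a at 98949837 to 98953703 on the minus strand, and Tuba1c at 99029891 to 99038110 on the plus strand. Tubb2a (chromosome 13, 34074274 to 34078007) and Tubb2b (34126748 to 34130466) are also neighbours, both on the minus strand.

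This likeness bears on how far a read can be given to a single isotype. Of all stretches of 100 bases in the Tuba1c transcript, 53.4% also occur in a transcript of Tuba1a or Tuba1b, and the share found in another member was 52.3% for Tuba1b and 38.4% for Tuba1a. With all other annotated genes counted, among them Gm17383 and Gm49450, it was 69.5% for Tuba1b and 65.1% for Tuba1a. The share found in another isotype was 35.9% for Tubb2a and 26.1% for Tubb2b (36.9% and 27.7% with all other genes counted), and 0% for Tuba4a, Tubb3, Tubb4a, Tubb4b and Tubb5. Tubb4b shared 29.2% of its stretches with other genes, mostly its pseudogene Tubb4b-ps1. The length of the reads and how reads with several matches were counted are not given in the sources used here. The deposited mean times 6 was a whole number (within 0.0031) for Tubb3, Tubb4a and Tubb4b but not for the other 7 isotypes, against 84.3% of all listed genes with a whole sum. Whole sums did not go with the shared stretches throughout. The sum was not whole for Tuba4a and Tubb5 (0% shared), but was whole for Tubb4b (29.2% shared with other genes). In the annotation Tuba1a and Tuba1b also overlap Gm49450, and Tubb3 overlaps Gm20388, on their own strand, while Tuba1b overlaps Gm41396, Tuba4a overlaps Stk16 and Tubb4b overlaps Fam166a on the other strand. Strand use in the counting is not given, so such reads cannot be told apart.

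Each library's count was rebuilt from the z-scores and is given as CPM, the count scaled to a common library size after TMM normalization. Totals over the listed genes ran from 15660395 to 17276168 counts per library, and every isotype was recovered to within 1.3 counts. Libraries differed from each other by more than sampling noise, with a chi-square of 4.29 to 20.3 per degree of freedom. The markers fixed for neurons summed to 13714 to 14743 CPM, and those of oligodendrocytes to 8428 to 13435 and of astrocytes to 4585 to 5933, so neuronal and glial RNA was present in all 6 libraries, as the labelled tissue and cell types say.

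Tuba1a, the main alpha isotype of postmitotic neurons, was the most abundant tubulin mRNA. It had 1567, 1587 and 1476 CPM in NS libraries 1, 2 and 3, and 1723, 1585 and 1327 in WS libraries 1, 2 and 3. Tubb4a was the highest of the beta isotypes in CPM, with 1092, 1176 and 1156 in NS and 1354, 1269 and 1050 in WS. In both genes the WS libraries included the highest and the lowest value, and the NS values lay between them.

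Tuba1b, a broadly expressed alpha isotype, had 888, 858 and 749 CPM in NS and 1033, 833 and 665 in WS. Tuba4a, the isotype without the terminal tyrosine codon, had 640.4, 672.6 and 670.2 CPM in NS and 698, 640.2 and 569 in WS. The libraries numbered 3 were the lowest of their group for Tuba1b, while for Tuba4a only WS library 3 stood low. Tubb3, the neuron-specific beta isotype, had 414, 421 and 413 CPM in NS and 483, 433 and 353 in WS. Its NS values were the closest to each other of all 10 isotypes, with a coefficient of variation of 1.0% against 15.5% in WS.

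Tubb2a, a major beta isotype of the brain, had 758, 688 and 693 CPM in NS and 752, 709 and 589 in WS. Its close copy Tubb2b, known for its role in neuronal migration, was much lower, with 148, 150 and 132 CPM in NS and 168, 146 and 142 in WS. Tubb5, which is expressed in most tissues, had 672, 644 and 657 CPM in NS and 709, 669 and 547 in WS. Tubb4b, also widely expressed and found in cilia, had the smallest ratio of highest to lowest library (1.15), from 278 in WS library 3 to 321 in NS library 3. Apart from Tuba1c, the 9 isotypes varied over the 6 libraries by a coefficient of variation of 4.92% (Tubb4b) to 14.98% (Tuba1b), beside a median of 8.2% over the 10876 genes that averaged 100 counts or more.

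**Figure D1:**
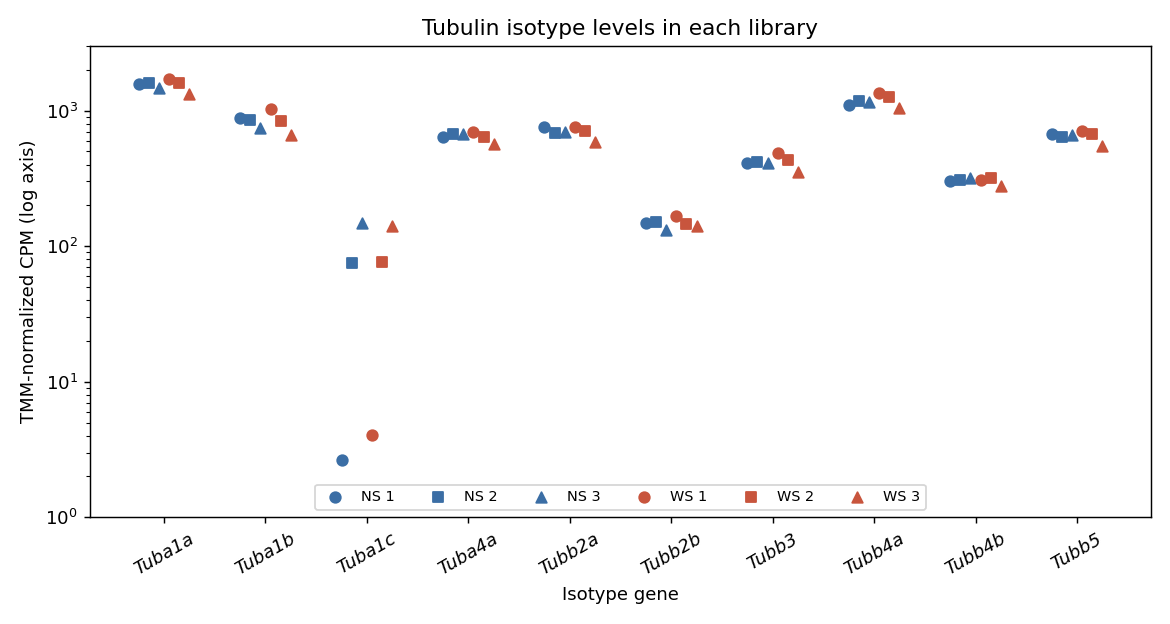
TMM-normalized CPM on a log axis for each of the 10 isotype genes in each library, with NS in blue, WS in red and a marker shape for each replicate number. Tuba1c spreads from 2.65 to 148 CPM, while the highest library of every other isotype is at most 1.55-fold above its lowest.

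Levels of different isotypes were compared per length, as CPM per kb of the principal transcript. On this scale Tuba1a had 857 ± 73.5 (SD, n = 6 libraries) and exceeded Tubb4a, the next isotype with 531 ± 50.6, in 6 of 6 libraries. Tuba1b (481 ± 72.0) and Tubb2a (434 ± 38.0) followed. Tubb4a was above Tuba1b in 5 of 6 libraries and Tuba1b above Tubb2a in 5 of 6, so these neighbours did not differ beyond their spread. Tubb5 (245 ± 20.7) stayed above Tuba4a (228 ± 15.8) in 6 of 6 libraries although their means differ by 1.07-fold. Tuba4a and Tubb3 (225 ± 22.3) were not separated, with Tuba4a higher in 4 of 6. Tubb4b (191 ± 9.42) and Tubb2b (67.6 ± 5.40) came next, and Tuba1c had the lowest mean, 37.7 ± 31.9. Tuba1c nonetheless exceeded Tubb2b in both libraries numbered 3.

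Summed over the isotypes, alpha tubulin had 1603 ± 132 and beta tubulin 1693 ± 131 CPM per kb (SD, n = 6), a ratio of 0.947 ± 0.0207. The ratio stayed between 0.921 and 0.978 in every library, although both sums were highest in WS library 1 and lowest in WS library 3. Tuba1a made up 53.4% ± 0.67 of the alpha sum, Tuba1b 29.9% ± 2.21, Tuba4a 14.3% ± 0.509 and Tuba1c 2.47% ± 2.18 (SD, n = 6). Of the beta sum, Tubb4a made up 31.3% ± 1.34, Tubb2a 25.6% ± 1.102, Tubb5 14.5% ± 0.339, Tubb3 13.2% ± 0.329, Tubb4b 11.3% ± 0.589 and Tubb2b 4.002% ± 0.281. These shares depend on the length taken for each gene. With the union of all annotated exons, Tuba4a fell to 11.6% and Tubb5 to 12.2% of their sums, and the first place of Tuba1a and of Tubb4a did not change. Tubb3, at 14.1%, then came above Tubb5, so the order of the middle isotypes depends on the length taken.

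**Figure D2:**
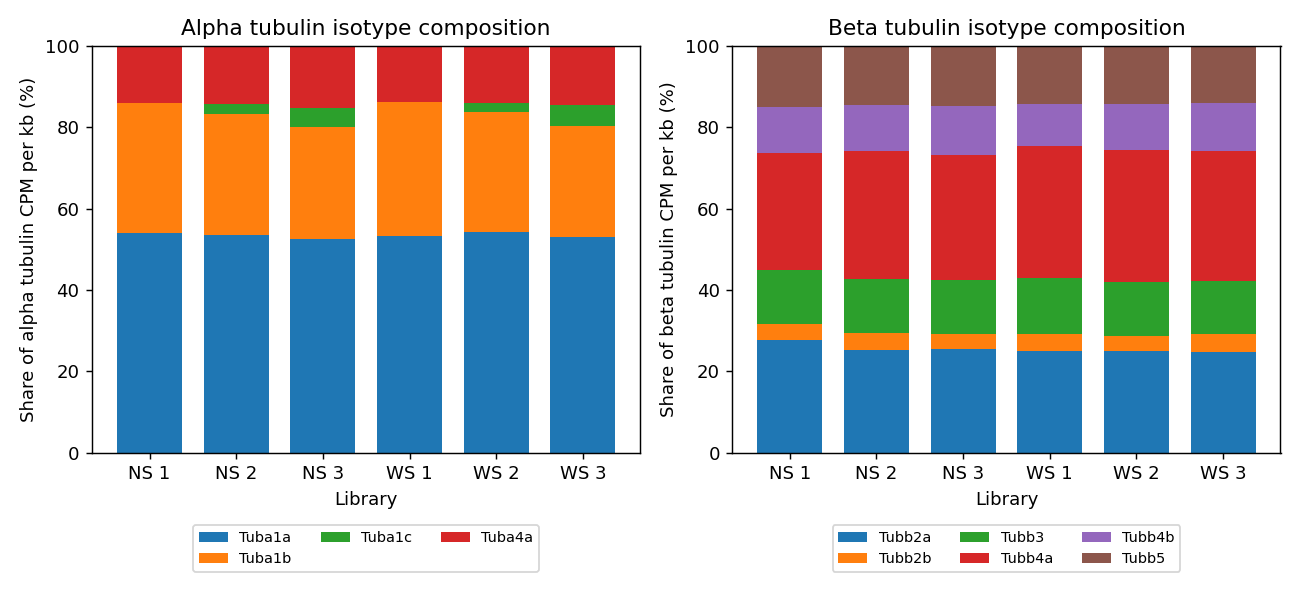
Stacked shares (percent of CPM per kb) of the 4 alpha isotypes, left, and the 6 beta isotypes, right, in each of the 6 libraries. Tuba1a takes 52.5% to 54.2% of alpha tubulin in every library, and the share of Tuba1c, from 0.0832% to 5.16%, follows the replicate number in both groups.

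Tuba1c levels went with the replicate number in both groups. Its counts were 42 in NS library 1 and 68 in WS library 1, 1207 in NS library 2 and 1241 in WS library 2, and 2377 in NS library 3 and 2248 in WS library 3. In CPM these are 2.65 and 4.03 for number 1, 75.3 and 76.7 for number 2, and 148 and 142 for number 3. NS and WS libraries of the same number thus lay within 1.52-fold, 1.02-fold and 1.04-fold of each other, while NS library 3 was 55.8-fold and WS library 3 35.2-fold above the library numbered 1 of its group. The step from number 2 to number 3 was 1.96-fold in NS and 1.85-fold in WS. By the ratio of its highest to its lowest library Tuba1c ranked 3rd of those 10876 genes, whose median ratio was 1.25. The labels give the number but not whether it marks an animal, a litter or a day.

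Tuba1b, the isotype closest to Tuba1c in sequence, moved the other way with the number. Its share of alpha tubulin was 31.7% and 33.0% in NS and WS library 1, 29.9% and 29.5% in those numbered 2, and 27.6% and 27.4% in those numbered 3. The shares of Tuba1b and Tuba1c together were 31.8%, 32.2% and 32.4% in NS and 33.1%, 31.9% and 32.6% in WS. The sum therefore had an SD of 0.484 percentage points over the 6 libraries, against 2.21 for Tuba1b alone and 2.18 for Tuba1c alone. Tuba1a held 54.1% and 53.2%, 53.4% and 54.2%, and 52.5% and 53.0% in the same order of libraries, and Tuba4a between 13.7% and 15.1%. The part that reads shared between Tuba1b and Tuba1c have in this was not tested, since the reads were not analysed here.

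**Figure D3:**
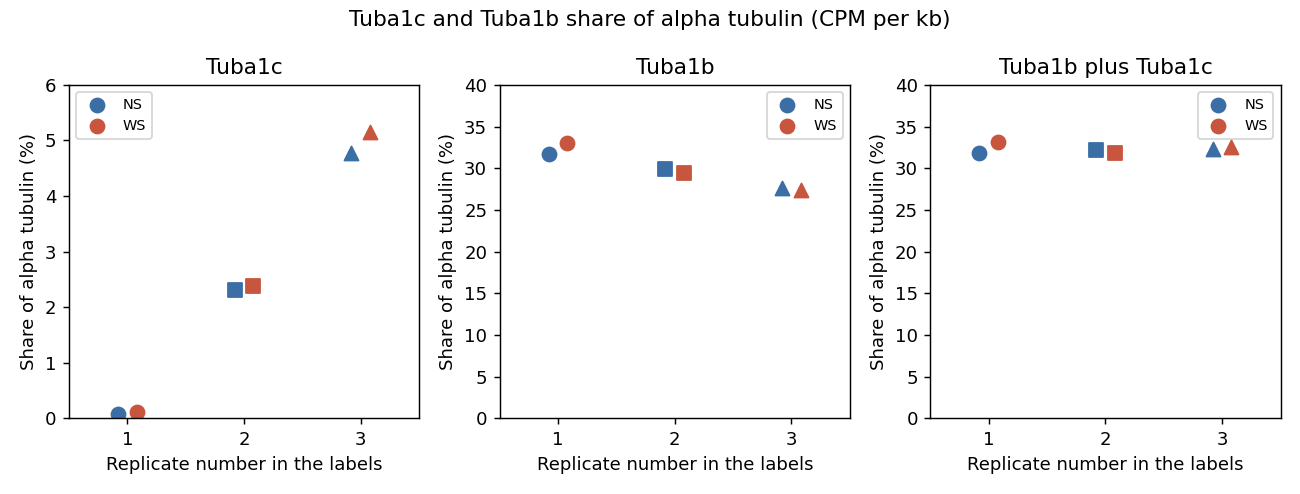
Share of alpha tubulin (percent of CPM per kb) taken by Tuba1c, Tuba1b and their sum, by replicate number, with NS in blue and WS in red. Tuba1c is near 0% in both libraries numbered 1 and highest in those numbered 3, Tuba1b is lowest in those numbered 3, and the sum stays between 31.8% and 33.1%.

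The 5 genes of these 10876 that followed Tuba1c most closely in log2 CPM over the 6 libraries were Spry4, Zfp180, Rgs11, Slc38a9 and Pgm1, with Pearson's r of 0.987 to 0.994. These are descriptions over 6 libraries picked from many genes. Their ranges were far smaller, with the highest library 1.24-fold to 1.48-fold above the lowest, against 55.8-fold for Tuba1c. Spry4, for example, had 199, 259 and 274 counts in NS and 213, 266 and 280 in WS. The same r with Tuba1c was -0.79 for Tuba1b, -0.75 for Tubb2a, -0.71 for Tubb2b, -0.64 for Tuba1a and -0.60 for Tubb5. It lay between -0.56 and -0.08 for Tubb3, Tuba4a, Tubb4a and Tubb4b. Tubb2a, Tubb2b and Tubb5 share no stretch of 100 bases with Tuba1c, so a negative r was not particular to Tuba1b.

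WS was then compared with NS, the comparison for which the study was made, with edgeR (quasi-likelihood test, Benjamini-Hochberg adjusted over the 13747 genes tested). None of the 9 isotypes apart from Tuba1c passed an adjusted p of 0.05, and 0 of 9 had an unadjusted p under 0.05, also with DESeq2. Over all tested genes 0.0364% passed the adjusted p, 0.0291% passed it with an absolute log2 fold change above 1, and 1.19% had an unadjusted p under 0.05. Tubb4a had the largest log2 fold change of the 9, 0.10 (standard error 0.10, 95% interval -0.11 to 0.32, adjusted p = 0.9998 by edgeR's quasi-likelihood test), from 1141 ± 43.7 CPM without and 1224 ± 157 CPM with stimulation (SD, n = 3 each). At the other end Tubb2a had -0.06 (standard error 0.10, 95% interval -0.27 to 0.15, adjusted p = 0.9998 by the same edgeR test), with 713 ± 38.9 and 683 ± 84.6 CPM (SD, n = 3 each). Tuba1a, at 1543 ± 59.4 CPM without and 1545 ± 201 CPM with stimulation (SD, n = 3 each), had a 95% interval of -0.22 to 0.22. Over the 9 isotypes the 95% intervals lay between -0.28 and 0.32 on the log2 scale, widest for Tuba1b (-0.28 to 0.32) and narrowest for Tubb4b (-0.22 to 0.12), and each included 0.

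The NS and WS values overlapped in CPM for every one of the 9, that is 0 of 9 did not overlap, beside 6.27% of all tested genes (3.11% with WS higher and 3.16% with WS lower). Of the 9 fold changes, 5 were above 0 and 4 below, with a median of 0.002, against a median of 0.0074 over all tested genes, whose 5th and 95th percentiles were -0.17 and 0.26. For Tuba1c the group means were 75.2 ± 72.5 CPM without and 74.2 ± 69.0 CPM with stimulation (SD, n = 3 each), a description only. Summed alpha tubulin was 3112 ± 76.0 CPM without and 3099 ± 379 CPM with stimulation, and summed beta tubulin 3383 ± 8.92 and 3425 ± 420 (SD, n = 3 each). Neither sum differed beyond its spread (exact permutation test over the 6 libraries, two-sided p = 1.0 for each, where 0.10 is the smallest that 3 against 3 allow).

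**Figure D4:**
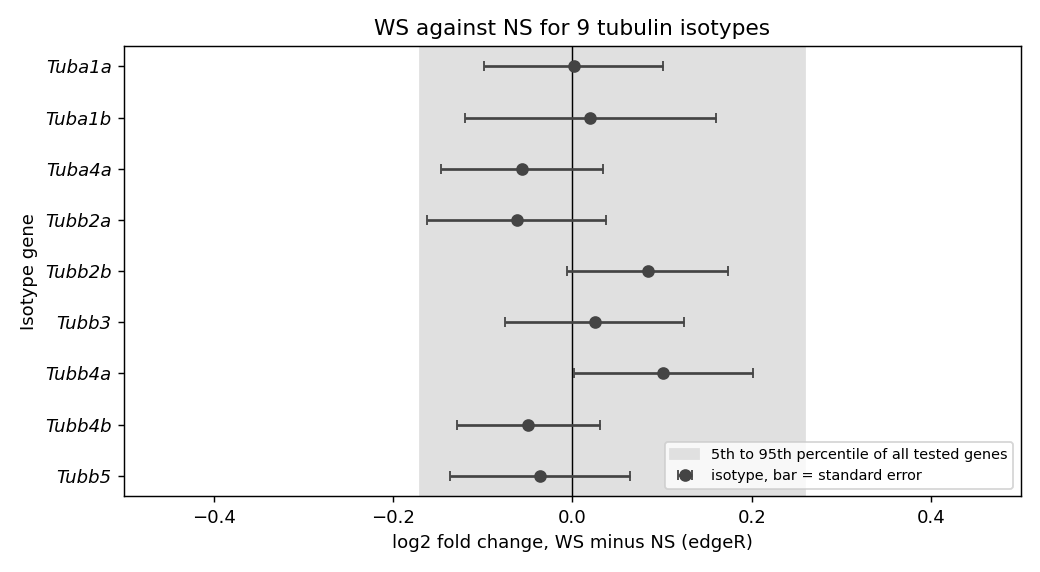
Log2 fold change of WS against NS (edgeR) for the 9 isotypes other than Tuba1c, with bars for the standard error and a grey band from the 5th to the 95th percentile of all tested genes, -0.17 to 0.26. All 9 points lie inside the band, from -0.06 (Tubb2a) to 0.10 (Tubb4a).

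Of the 9 isotypes compared by their share, 3, all beta, did not overlap between the groups. A background over all genes cannot be had for shares of a family, and the 6.27% above is for CPM. Tubb4a took 28.9%, 31.3% and 30.9% of the beta sum in NS and 32.5%, 32.4% and 32.03% in WS, a mean difference of 1.92 percentage points. Tubb2a took 27.8%, 25.4% and 25.6% in NS and 24.97%, 25.03% and 24.86% in WS, and Tubb5 14.96%, 14.4% and 14.8% in NS and 14.3%, 14.3% and 14.0% in WS. All WS shares were thus above the NS shares for Tubb4a and below them for Tubb2a and Tubb5. The exact permutation p was 0.10 for each, the smallest this design can give, and 0.30 after Benjamini-Hochberg adjustment over the 9 isotypes compared, so none passed. Taken within same-numbered pairs, the Tubb4a share was higher with WS by 3.57, 1.05 and 1.15 percentage points for numbers 1, 2 and 3, and the exact sign-flip p was 0.25, the smallest that 3 pairs allow. Tubb2a and Tubb5 shares were lower in 3 of 3 pairs with the same p, as were those of Tuba4a and Tubb4b. Without NS library 1 the mean difference was 1.20 percentage points for Tubb4a and -0.553 for Tubb2a. Shares of 1 sum are not independent, since a higher Tubb4a lowers the others, and this comparison was chosen after the shares were seen. The markers of oligodendrocytes, in which Tubb4a is abundant, had log2 fold changes of 0.14 to 0.24 in WS, with 10 of 10 above 0 and 0 of 10 called. Their summed level was 8428, 12139 and 11458 CPM in NS and 9999, 13276 and 13435 in WS, lowest in NS library 1, where the Tubb4a share was also lowest. WS library 1, with the highest Tubb4a share, had a lower summed marker level than NS libraries 2 and 3. Within same-numbered pairs the summed marker level was higher with WS in 3 of 3, as was the Tubb4a share. Tubb4a itself, in CPM, was higher with WS for numbers 1 and 2 but lower for number 3, at 1156 in NS and 1050 in WS. WS library 3 thus had the highest summed marker level and the lowest Tubb4a CPM of the 6. The part of oligodendrocytes in the Tubb4a share was not tested, and in bulk tissue more cells of a type and more RNA per cell cannot be told apart.

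The WS libraries differed more among themselves than the NS libraries for every isotype apart from Tuba1c, by their SD in CPM, as did 64.7% of all tested genes. WS library 1 held the highest value of the 6 in 7 of these 9 isotypes, and WS library 3 the lowest in 8 of 9. Among the 10876 genes that averaged 100 counts or more, 28.9% had their highest value in WS library 1 and 24.5% their lowest in WS library 3. Taken as the deviation from each gene's mean log2 CPM, the median of the 9 isotypes was 0.162 in WS library 1, 0.043 in WS library 2 and -0.214 in WS library 3, and between -0.017 and 0.011 in the NS libraries. Without WS library 3 the log2 fold change of Tubb4a was 0.20 and that of Tuba1a 0.10, and without WS library 1 they were 0.02 and -0.08.

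Transcript length moved with both of these libraries. In WS library 3 the median deviation was -0.053 for the 3254 genes whose longest coding transcript has 1500 to 3000 bases, and 0.119 for the 1758 genes of 6000 bases or more. In WS library 1 the same medians were 0.048 and -0.093. Principal transcripts of the isotypes have 1598 to 2840 bases. In both libraries the median of the 9 isotypes had the sign of the class of 1500 to 3000 bases and was larger in size. The signs were opposite in NS library 2 (class -0.025, isotypes 0.011) and NS library 3 (0.024 and -0.017). They were the same in NS library 1 (0.004 and 0.008) and WS library 2 (0.009 and 0.043). Single isotypes differed, since Tubb4b lay near its own mean in WS library 1 and Tubb2b stood no lower than its length class in WS library 3. Summed neuron markers were 14743 CPM in WS library 1 and 13714 in WS library 3, the highest and the lowest of the 6. WS library 2 had 13859, below NS libraries 1, 2 and 3 (14466, 14341 and 14259), with the isotypes at 0.043. The part of length or of neuronal RNA in these values was not tested.

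**Figure D5:**
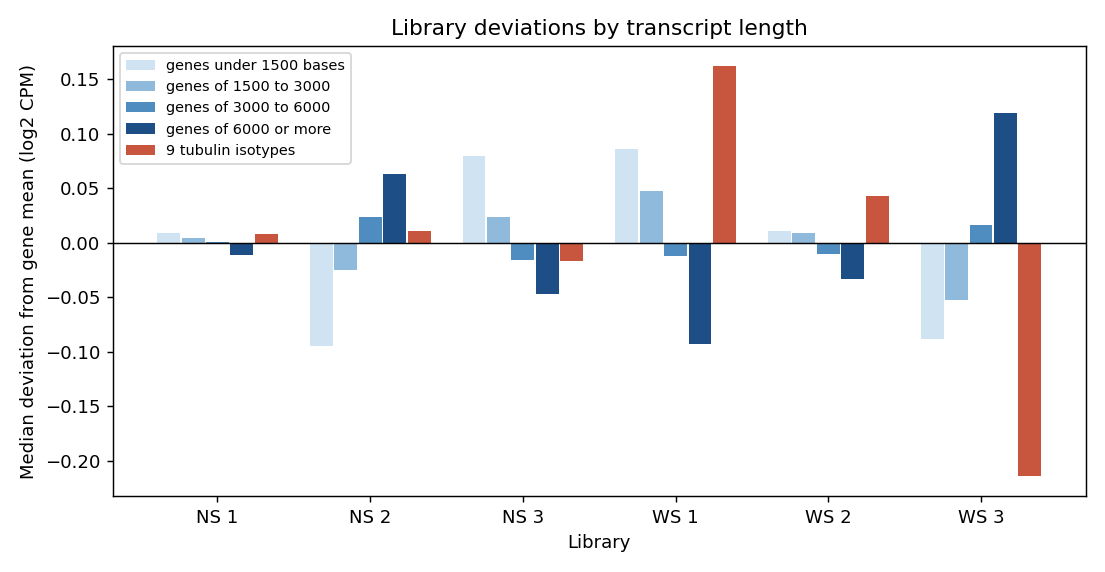
Median deviation of each library from the gene's mean log2 CPM, for genes in 4 classes of transcript length (blue, light to dark) and for the 9 isotypes other than Tuba1c (red). In WS library 3 short genes lie below 0 and long genes above it, with the isotypes at -0.214, and WS library 1 has the opposite signs, with the isotypes at 0.162. In NS libraries 2 and 3 the isotypes have the opposite sign to genes of 1500 to 3000 bases.

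Of the other tubulin genes, 6 of the 10 on the list fixed for this work were among the listed genes (Tuba8, Tubb6, Tubg1, Tubg2, Tubd1 and Tube1). The gamma tubulins, which nucleate microtubules, had mean counts of 1115 (Tubg2) and 764.5 (Tubg1), and Tuba8 had 261. Tubb6, Tubd1 and Tube1, the last 2 of which belong to centrioles, were low, with mean counts of 52.7, 59.3 and 29.5. None was called in WS against NS, and their log2 fold changes lay between -0.14 and 0.03.

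The genes that fold, regulate, modify and bind tubulin gave 0 calls as well, where 0.0291% of all tested genes were called. With so few calls over all genes, 0 calls in lists of this size say little about these genes. Of 21 genes for tubulin folding (the CCT chaperonin, prefoldin and the tubulin cofactors), 9 were above 0, 12 below and 0 called, with a median log2 fold change of -0.012. Its ends were the chaperonin subunit Cct4 at -0.14 (standard error 0.08) and the cofactor Tbca, which binds beta tubulin, at 0.21 (standard error 0.13). The 3 autoregulation genes had 0 calls, with Ttc5 at 0.08 (standard error 0.09) 31.5 ± 1.33 CPM without and 33.2 ± 1.85 CPM with stimulation (SD, n = 3 each), and Scaper at -0.13 (standard error 0.11). Of 17 tested genes that modify tubulin, such as the ligase Ttl and the vasohibins, 10 were above 0 and 0 called, with the deglutamylases Agbl4 at -0.14 and Agbl5 at 0.14 as the ends among those with at least 100 counts.

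Microtubule-associated proteins, 24 genes, were split evenly with 12 above and 12 below 0 and 0 called, from Map9 at -0.11 (standard error 0.07) to the neuronal Map1a at 0.10 (standard error 0.08). Among the 12 genes for destabilisation and severing 3 were above 0 and 0 called. The stathmin Stmn2, which binds free tubulin dimers, had -0.09 (standard error 0.08), the lowest of those with at least 100 counts on average. Of 12 motor genes 7 were above 0 and 0 called, between the kinesin light chain Klc1 at -0.04 and the neuronal kinesin Kif5a at 0.10. All calls here come from the same edgeR fit, and 0 genes of these lists had an unadjusted p under 0.05, beside 1.19% of all tested genes. Summed levels of the microtubule-associated proteins (8362 CPM) and of the motors (9830 CPM) were highest in WS library 3, the library in which the isotypes were lowest, and no more than 8333 and 9691 CPM elsewhere. Those of destabilisation and severing (2037 CPM) and of the other tubulins (125.7 CPM) were lowest there. The folding, autoregulation and modification sums had neither end there. Genes of 6000 bases or more also stood high in that library (median deviation 0.119), and the part of length in these sums was not tested.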

How the data were processed

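The authors sequenced total RNA of S1 cortex on the DNBseq platform, discarded reads from rRNA or of poor quality, and mapped what remained with HISAT2. The methods accept a low RNA integrity number, and its value per library is not given. The submitters' processing notes name the mm10 build. The counting tool, annotation and read length are not given in the sources used here. For each gene the authors deposited the mean over 6 libraries as an estimated count not scaled for depth, its SD, a signal that is never negative, and for each library a z-score (a score, the distance from that mean in units of the SD). The column of WS library 3 carries an added letter and was taken as WS because the deposited WS mean z-score includes it (differences of at most 0.00067). Columns of the authors' own comparison (log2 fold change, p-value, FDR), and a further deposited table of selected genes, were not used.

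Counts were computed as mean plus z-score times SD and rounded. In 13418 genes with a rounding uncertainty under 0.1 count, 91.0% of values came back within 0.1 of a whole number. WS was compared with NS with edgeR 4.0.16 (TMM, filterByExpr, quasi-likelihood F test, 13747 genes tested, Benjamini-Hochberg adjustment), and a call needed both an adjusted p below 0.05 and a log2 fold change beyond 1 in size. The design had been written for these recovered counts. The fit was tested on simulated counts. Standard errors were taken from the F statistic. The other tools were DESeq2 1.42.0, limma 3.58.1, R 4.3.3, SciPy 1.17.1 and Python 3.11.15. Lengths, positions and coding sequences came from GENCODE M21 on GRCm38, the assembly mm10 stands for.

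Depth was 15660395 to 17276168 counts per library, and counting error falls as counts rise. Deviations from the group mean correlated between same-numbered libraries across 13747 genes (Pearson's r 0.342, 0.228 and 0.124, genes not being independent replicates). By chi-square per degree of freedom each NS library was closest to WS library 2 (7.07, 4.29 and 4.63 for NS libraries 1, 2 and 3). That measure did not show the pairing for numbers 1 and 3. The numbers may therefore pair the libraries, judged from the data alone. A blocked fit was made beside the unblocked one, which gave the fold changes and intervals above.

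The 10 isotypes and all lists were chosen with earlier results of these data known. Genes named are the isotypes, the ends of each list among genes with at least 100 counts, the other tubulins, and the 5 genes most like Tuba1c. Lists were: other tubulins (10), folding (21), autoregulation (3), modification (18), microtubule-associated proteins (24), destabilisation and severing (12), motors (12), and markers of neurons, immature neurons, oligodendrocytes, astrocytes, microglia, endothelium and cycling cells. The alternatives tried were RLE size factors, plain library size, 2 other count filters, DESeq2, the block, leaving out each library, other thresholds and the exon union as length. Protein sequences were not used here. Some items that the naming rule would give are not reported here.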

Additional observations from a re-analysis of the deposited data

How the results depend on the processing

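No isotype was called under any of the 12 alternative fits, and 0 of the genes in the pathway lists, under the same alternatives, which for those lists were added after seeing the data. The lowest adjusted p of the 9 isotypes over all fits was 0.884 (edgeR's quasi-likelihood test), and the lowest unadjusted p 0.0299, for Tubb4a without WS replicate 3. The replicate block, in which same-numbered libraries are paired, changed no call, and turned Tuba1a from 0.0016 to -0.0061 on the log2 scale. Tuba1a also turned to -0.0047 with library size only, -3.3e-05 with RLE size factors and -3.2e-05 with DESeq2, all near 0. With 1 library left out in turn, log2 fold changes ranged from -0.0832 to 0.0998 for Tuba1a, -0.15 to 0.17 for Tuba1b, -0.1286 to 0.0179 for Tuba4a, -0.136 to 0.0342 for Tubb2a, -0.0799 to 0.1396 for Tubb3, -0.10 to 0.0043 for Tubb4b and -0.1137 to 0.0664 for Tubb5. Tubb4a (0.02 to 0.20) and Tubb2b (0.0051 to 0.13) stayed above 0. The same range was -0.1068 to 0.0435 for Tubg1, -0.18 to 0.11 for Tuba8, -0.20 to -0.016 for Scaper (the latter without NS replicate 1), 0.09 to 0.33 for Tbca, -0.18 to -0.08 for Cct4, 0.0217 to 0.11 for Ttc5, -0.21 to -0.09 for Agbl4, 0.11 to 0.18 for Agbl5, -0.13 to -0.08 for Map9, 0.06 to 0.16 for Map1a, -0.14 to -0.05 for Stmn2, 0.05 to 0.17 for Kif5a and -0.10 to 0.0009 for Klc1. The log2 ratio of the alpha sums was -0.01 and ranged from -0.0923 to 0.0834, positive without NS replicate 2 or WS replicate 3, and that of the beta sums was 0.02 and ranged from -0.0575 to 0.1129, negative without WS replicate 1 or WS replicate 2. The ratio of highest to lowest library for Tuba1c ranged from 36.6 to 55.8, the lower value without NS replicate 1. With the exon union as length the mean shares moved to 56.7% for Tuba1a, 11.6% for Tuba4a, 27.2% for Tubb2a, 14.1% for Tubb3, 33.3% for Tubb4a, 9.21% for Tubb4b and 12.2% for Tubb5. Tubb4a, Tubb2a and Tubb5 shares did not overlap between groups on either length, and their mean differences kept their sign without any 1 library, from 1.20 to 2.40, -1.75 to -0.553 and -0.641 to -0.374 percentage points.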

Other observations

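Markers of the other cell types gave these values between the groups, and 0 were called in the edgeR fit. Immature neuron markers, which could accompany the developmental isotypes Tuba1a, Tubb2b and Tubb3, were at 0.001 in the median (log2 fold change), 4 of 8 above 0, and summed levels of 154 to 173 CPM. Astrocyte markers had a median of 0.13 with 10 of 10 above 0, endothelial markers 0.088 with 15 of 15, and microglia markers 0.099 with 7 of 8. Cycling cell markers summed to between 7.63 and 15.2 CPM, with a median of 0.174 and 5 of 8 above 0. Of all these markers Pecam1 alone had an unadjusted p under 0.05, beside 1.19% of all tested genes.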
